A study of Mus musculus with 4 samples.

Results

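The genes described here are 46 genes of the interferon and NF-kB response, chosen by symbol from the GENCODE M21 annotation of mm10, out of 21829 protein-coding genes with a coding start site. They comprised 5 sensors (Ifih1, Ddx58, Tlr2, Tlr3 and Tlr4), 4 interferon receptor subunits (Ifnar1, Ifnar2, Ifngr1 and Ifngr2), 8 interferon regulatory factors (Irf1 to Irf5 and Irf7 to Irf9), 5 NF-kB subunits (Nfkb1, Nfkb2, Rela, Relb and Rel), 2 feedback inhibitors of NF-kB (Nfkbia and Tnfaip3), 18 antiviral effectors and 4 genes of antigen processing. All are counted among the protein-coding genes except Mx2, which the annotation types as a polymorphic pseudogene. Accessible chromatin was mapped in 3T3-L1, an immortalized line of mouse embryo fibroblasts that can turn into adipocytes, which the labels give as strain C57BL/6J. No treatment, genetic change, age or sex is given for it. DNase-seq, which sequences the ends that DNase I leaves when it cuts open DNA, was run on 4 libraries of 2 biosamples, with 2 technical libraries each. For each biosample 1 peak list and 1 hotspot list, made from both of its libraries, were deposited.

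Cells sense viral nucleic acids and microbial products through cytoplasmic helicases such as MDA5 (Ifih1) and RIG-I (Ddx58) and through Toll-like receptors, and the signal runs to IRF and NF-kB transcription factors. Type I interferon, once secreted, acts through its receptor on a complex that includes STAT2 and IRF9 and binds the interferon-stimulated response element (ISRE) in the promoters of antiviral genes, while NF-kB dimers bind kappa-B sites and switch on their own inhibitors. Fibroblasts respond to interferon and to inflammatory signals, and many of the effectors are known as strongly inducible genes with low basal expression.

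A promoter was called open when a peak of each list lay within 1000 bp of any start site of a coding transcript. The peak score is the authors' own value, a whole number up to 150 whose definition is not given in the sources used here, so it was read only as a rank within its list (percentile, where 100 is the strongest). Ranks are compared between genes of the same list and not between the lists, whose lengths differ. The scores of a gene are those of its strongest promoter peak in biosample 1 and then in biosample 2, which overlap at every open promoter except those of Ddx58, Irf3 and Gbp2. Biosample 1 had 298793 peaks and biosample 2 had 97430, so the second list was 3.07 times shorter. Read depth is unknown, and nothing in the labels tells if the biosamples came from different cultures. With 1 list per biosample there was no spread between replicates and no test was made; the 95% Wilson intervals given cover counting error only, and genes are not replicates. All 10 fibroblast markers examined (Col1a1, Col1a2, Col3a1, Fn1, Vim, Thy1, Pdgfra, Pdgfrb, Dcn and S100a4) had open promoters. Of 12 macrophage and leukocyte markers, 4 were open (Cd68, Csf1r, Cd14 and Lyz2), Spi1 had a peak in biosample 1 alone, and 7 had none, among them Ptprc, Adgre1, Itgam, Tyrobp, Fcgr1 and Cd3e. Over all protein-coding genes 51.8% were open. All 12 leukocyte markers and 9 of the 10 fibroblast markers had CpG-poor promoters, with a ratio of observed to expected CpG below 0.6. Of all CpG-poor promoters 27.1% were open and 41.7% had a peak in biosample 1, so the leukocyte markers were near their promoter class.

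The sequences under the promoter peaks show where the interferon motif lies. An ISRE match was taken as GAAANNGAAA on either strand, which on the other strand reads as TTTC, 2 bases and TTTC. In 8 effectors a promoter peak present in both lists held a match. The peaks of 6 of them follow, ordered by their mean percentile over the lists, as GRCm38.p6 sequence read 5′ to 3′ in the direction of the gene, with annotated UTR left out; those of Oasl2 and Tap2, 406 and 356 bp downstream of a start site, are not shown. Capitals mark the ISRE matches, which run together where they overlap, and in Bst2 also a kappa-B match.
Mx2 (chr16:97535096-97535245, plus strand): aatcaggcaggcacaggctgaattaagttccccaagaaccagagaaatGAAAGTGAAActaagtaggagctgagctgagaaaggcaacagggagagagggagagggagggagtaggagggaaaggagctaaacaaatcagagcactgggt
Usp18 (chr6:121245796-121245905, plus strand): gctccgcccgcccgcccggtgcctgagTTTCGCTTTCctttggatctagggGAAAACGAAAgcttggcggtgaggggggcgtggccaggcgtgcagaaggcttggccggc
Bst2 (chr8:71537496-71537645, minus strand): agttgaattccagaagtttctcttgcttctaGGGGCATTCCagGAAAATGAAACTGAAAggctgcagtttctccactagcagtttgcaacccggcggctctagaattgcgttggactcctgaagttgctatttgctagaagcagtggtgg
Gbp3 (chr3:142559936-142560025, plus strand): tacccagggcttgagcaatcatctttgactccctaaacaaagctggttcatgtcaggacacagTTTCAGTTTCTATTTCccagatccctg
Ifit1 (chr19:34640744-34640870, plus strand): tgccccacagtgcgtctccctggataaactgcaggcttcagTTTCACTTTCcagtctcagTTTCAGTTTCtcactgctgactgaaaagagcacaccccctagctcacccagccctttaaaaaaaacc
Oas3 (chr5:120777662-120777785, minus strand): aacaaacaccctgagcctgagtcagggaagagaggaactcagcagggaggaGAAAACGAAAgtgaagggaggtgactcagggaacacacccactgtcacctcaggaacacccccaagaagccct

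Bst2, which encodes tetherin, an anchor of budding virions, held 2 overlapping matches whose centres lay 135 and 141 bp before its start site. Usp18, the protease that removes ISG15 from proteins, held 2 matches at 79 and 55 bp, and Ifit1, an inhibitor of viral RNA translation, held 2 at 82 and 63 bp before the start site. In 6 further genes, of which 4 are shown, matches from 250 bp before to 50 bp after a start site met a biosample 1 peak and no peak of biosample 2, and in Ifit3 it met no peak of either list. These shorter stretches are shown for that contrast, with the ISRE matches again in capitals.
Isg15 (chr4:156200855-156200904, minus strand): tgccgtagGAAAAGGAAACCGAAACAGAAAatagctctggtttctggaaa
Rsad2 (chr12:26456543-26456592, minus strand): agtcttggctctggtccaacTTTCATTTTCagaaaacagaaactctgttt
Oas1a (chr5:120907522-120907559, minus strand): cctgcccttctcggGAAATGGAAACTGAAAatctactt
Ifih1 (chr2:62646212-62646243, minus strand): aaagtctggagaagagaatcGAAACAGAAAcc
Ifit3 (chr19:34583353-34583402, plus strand): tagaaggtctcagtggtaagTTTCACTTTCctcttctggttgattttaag

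Isg15, the ubiquitin-like modifier, held 3 overlapping matches 61 to 73 bp before its start site, more ISRE matches than any of the other 45 genes held in the promoter window.

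The kappa-B decamer, the binding consensus of NF-kB dimers, was searched on both strands in the same way. The promoter peaks of the 2 feedback inhibitors and of the transcription factors Irf3, Irf1 and Relb are shown with the kappa-B match in capitals.
Irf3 (chr7:44997254-44997385, plus strand): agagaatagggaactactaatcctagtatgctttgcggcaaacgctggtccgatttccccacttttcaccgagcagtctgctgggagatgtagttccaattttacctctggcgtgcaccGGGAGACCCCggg
Nfkbia (chr12:55492648-55492705, minus strand): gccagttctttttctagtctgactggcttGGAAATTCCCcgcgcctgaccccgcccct
Tnfaip3 (chr10:19015411-19015505, minus strand): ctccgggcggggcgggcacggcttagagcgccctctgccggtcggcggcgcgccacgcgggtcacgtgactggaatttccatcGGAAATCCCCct
Irf1 (chr11:53769896-53770013, plus strand): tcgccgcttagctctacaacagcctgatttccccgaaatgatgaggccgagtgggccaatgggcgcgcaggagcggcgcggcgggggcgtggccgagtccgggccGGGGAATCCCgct
Relb (chr7:19629476-19629625, minus strand): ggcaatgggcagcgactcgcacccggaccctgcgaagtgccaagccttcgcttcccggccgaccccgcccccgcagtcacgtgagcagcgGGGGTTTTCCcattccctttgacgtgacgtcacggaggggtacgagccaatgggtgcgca

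In Nfkbia, which encodes the inhibitor that holds NF-kB in the cytoplasm, the match lay 24 bp before the start site, in Tnfaip3, which encodes the ubiquitin editor A20, 7 bp, in Irf1 9 bp and in Relb 92 bp. The Irf3 match lay in a peak 263 bp before a start site. It is outside the window from 250 bp before to 50 bp after, so Irf3 is not among the genes counted with a match. A match is a description of letters and does not show that a factor was bound.

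Most promoters of the 46 genes were accessible in these cells, for which no interferon or inflammatory treatment is named. A peak of each list lay at 37 of 46 promoters (80.4%, interval 66.8 to 89.3), beside 51.8% of all protein-coding genes. Taken singly, the biosample 1 list had a peak at 43 of 46, beside 62.6% of all genes, and the biosample 2 list at 37, beside 51.9%. Hotspots, the wider regions of enriched cleavage, gave the same counts of 37, 43 and 37, with 52.1% of all genes in both lists. Ifih1, Nfkb1, Isg15, Oas1a, Oas2 and Rsad2 had a promoter peak in biosample 1 only, and Irf4, Irf8 and Ifit3 had none in either list. No promoter of the 46 had a peak in biosample 2 only. Over all 21829 genes the counts were 2349 for biosample 1 only, 22 for biosample 2 only and 8140 for neither list. The window of 1000 bp did not divide close cases: the farthest nearest peaks inside it were at Oasl1, 655 bp from a start site in biosample 1 and 635 bp in biosample 2, and the closest outside it was at Ifit3, at 2565 and 2645 bp.

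By role, the share of open promoters ran from 8 of 9 sensors and receptors (88.9%, 56.5 to 98.0) through 17 of 22 effectors (77.3%, 56.6 to 89.9) to 10 of 13 transcription factors (76.9%, 49.7 to 91.8), and these intervals overlap. The 4 interferon receptor genes, the 4 antigen processing genes and both feedback inhibitors were all open. Among the antiviral effectors it was 13 of 18. When only the stronger 50% of each list was kept, 11 of 22 effectors were open, a share near the 46.2% of all genes, while 8 of 13 transcription factors and 7 of 9 sensors and receptors were.

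**Figure D1:**
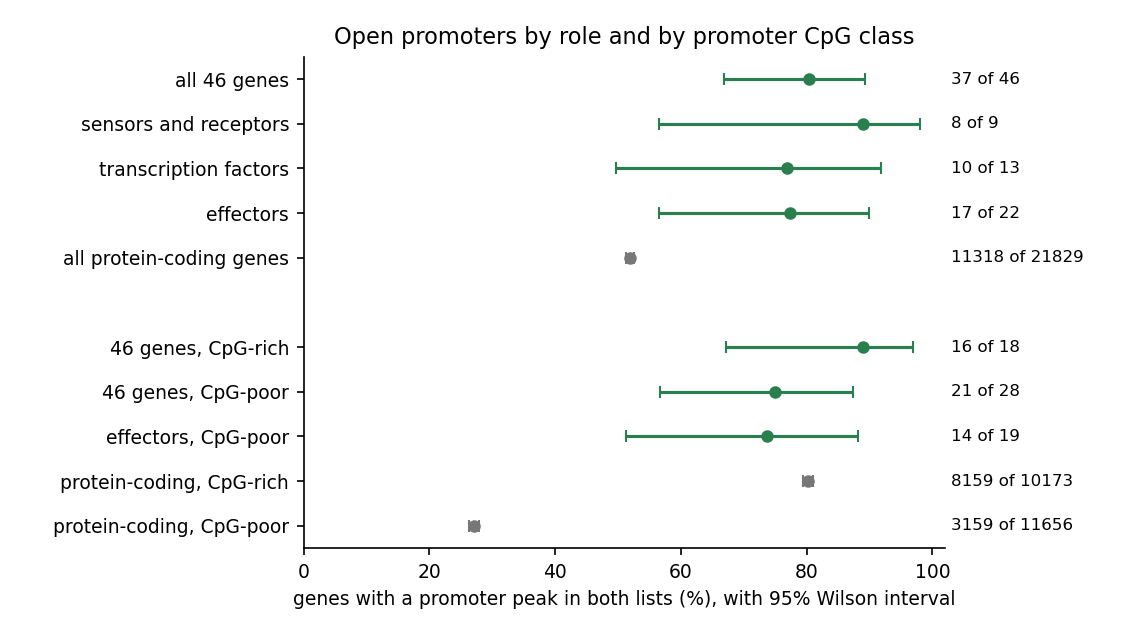
Share of genes with a promoter peak in both lists (x axis, %), for the 46 genes and their roles and for all protein-coding genes, above for all promoters and below by promoter CpG class; points are shares, bars 95% Wilson intervals and the counts stand at the right. Of the CpG-poor promoters, 21 of 28 among the 46 genes and 3159 of 11656 among all genes were open.

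Promoter CpG content differed between the roles. The ratio of observed to expected CpG in the 1000 bp around the most upstream start site had a median of 0.249 over the effectors and 0.739 over the transcription factors, beside 0.561 over all genes. With 0.6 as the border, 19 of 22 effectors and all 5 sensors had CpG-poor promoters, and 9 of 13 transcription factors and all 4 receptors had CpG-rich ones. Over all 21829 protein-coding genes, 11656 were CpG-poor and 10173 CpG-rich. Of all genes, 80.2% of the CpG-rich and 27.1% of the CpG-poor promoters were open. Among the 46 genes it was 16 of 18 CpG-rich promoters (88.9%, 67.2 to 96.9) and 21 of 28 CpG-poor ones (interval 56.6 to 87.3%). Of the 9 CpG-rich transcription factors 7 were open (77.8%, 45.3 to 93.7), near the 80.2% of all CpG-rich promoters. The CpG-poor effectors were open in 14 of 19 cases (73.7%, 51.2 to 88.2), and 18 of them had a peak in biosample 1, beside 41.7% of all CpG-poor promoters. Within the stronger 50% of each list, 8 of these 19 effectors were open, beside 21.2% of all CpG-poor promoters.

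Among the sensors, Tlr3, the endosomal receptor of double-stranded RNA, had the strongest promoter peak. Its score was 138 in biosample 1 and 67 in biosample 2, at percentiles 96.4 and 89.0. Tlr4, the receptor of bacterial lipopolysaccharide, scored 130 and 51 (92.9 and 76.1). The Ddx58 peak over a start site scored 117 and 29 (86.7 and 42.1), and the strongest biosample 2 peak of this gene, 415 bp downstream, scored 50 (74.98). Tlr2, the receptor of bacterial lipoproteins, scored 123 in biosample 1 and 37 in biosample 2, at percentiles 89.6 and 57.3. Ifih1 was the weakest of the sensors: its peak over the start site (chr2:62646196-62646345) scored 62, at percentile 46.9, and the nearest biosample 2 peak lay 8425 bp away.

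The subunits of the interferon receptors were open throughout but not equally strongly. Ifnar1 scored 141 and 88, at percentiles 97.5 and 97.4, and Ifngr1 scored 142 and 82, at 97.9 and 95.8, so that the ligand-binding chain of the type II receptor and a chain of the type I receptor ranked near the top of both lists. Their partner chains ranked lower than these in both lists. Ifnar2 scored 129 and 47 (92.4 and 71.6) and Ifngr2 121 and 30 (88.7 and 44.2).

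**Figure D2:**
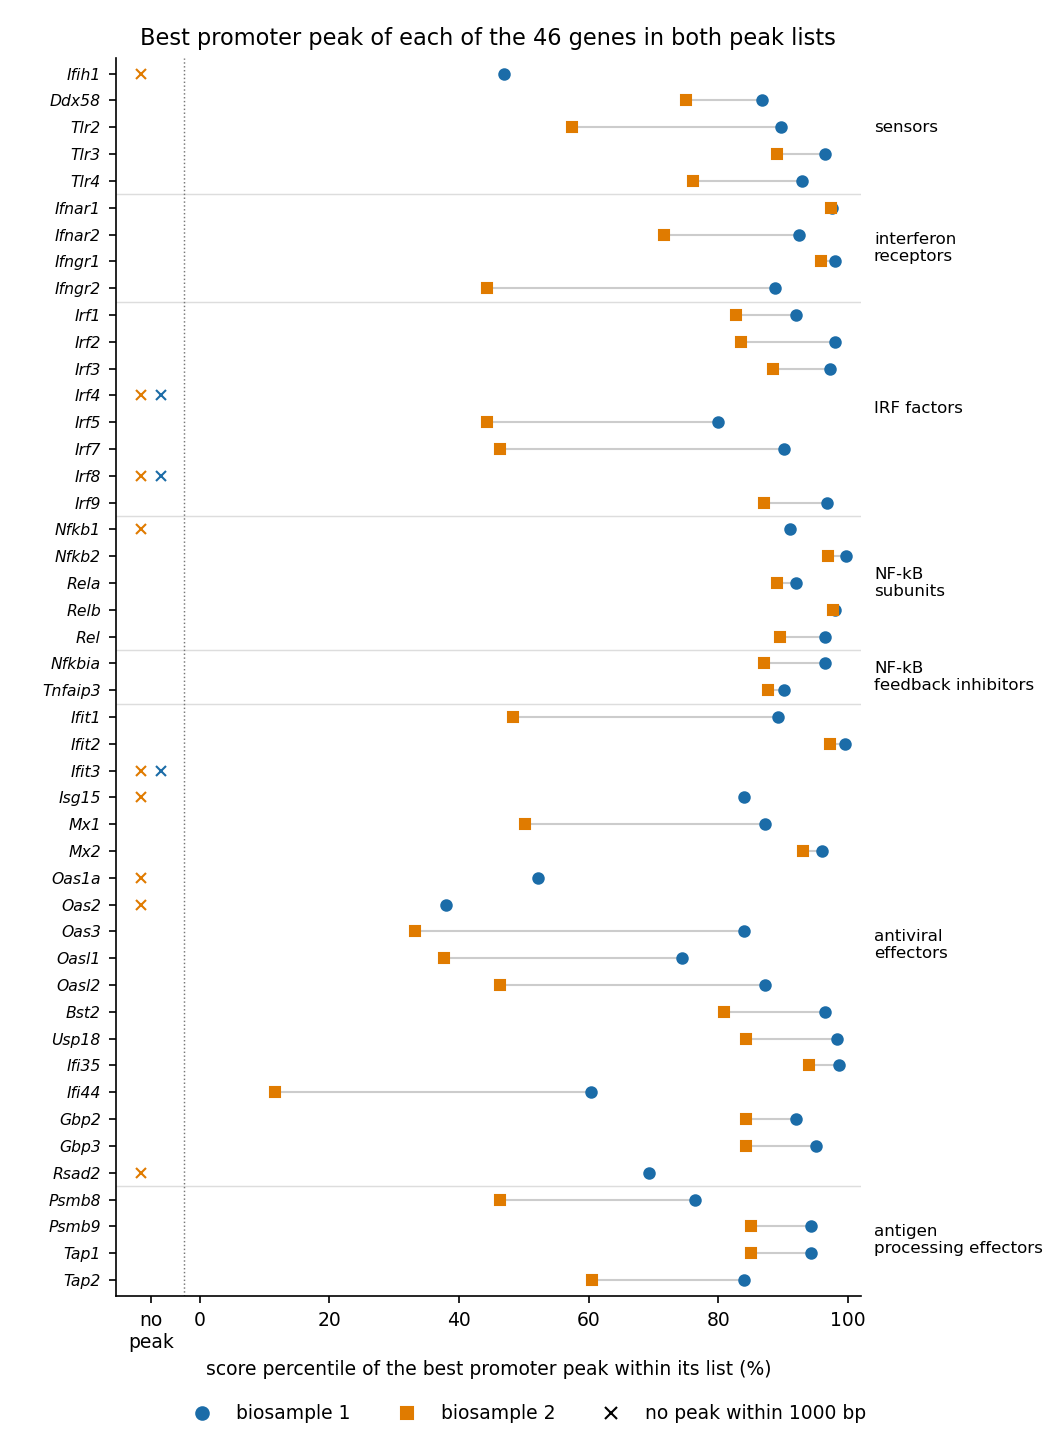
Score percentile of the strongest peak within 1000 bp of a start site (x axis, %, within its list) for each of the 46 genes (rows, by role), in biosample 1 (circles) and biosample 2 (squares); crosses at the left mark genes without such a peak. Nfkb2, Relb, Ifit2, Ifnar1 and Ifngr1 lie above 95 in both lists, and 9 genes lack a peak in at least 1 list.

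Among the transcription factors, Nfkb2 had the strongest promoter peak in biosample 1 and Relb in biosample 2. Nfkb2, which encodes the p100 precursor of the non-canonical pathway, scored 148 and 86 (99.7 and 96.9) 39 bp before a start site (chr19:46304556-46304705). Relb, its usual partner, scored 142 and 89 (97.9 and 97.6), Rel 138 and 68 (96.4 and 89.5) and Rela, the canonical activator, 128 and 67 (92.0 and 89.0). Nfkb1, the p105 precursor, stood apart from them. It had 4 promoter peaks in biosample 1, with scores of 126, 123, 117 and 42, and none in biosample 2, where the nearest lay 2857 bp from a start site. Its promoter had the highest CpG ratio of the 46 genes, 0.968.

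The interferon regulatory factors comprised 6 genes with open promoters and 2 without a promoter peak. Irf3, the factor that sensors activate first, scored 140 in biosample 1 and 66 in biosample 2 (97.2 and 88.4), with its best biosample 1 peak also within 1000 bp of a start site of Bcl2l12. Irf9, the DNA-binding part of the interferon-stimulated STAT complex, scored 139 and 64 (96.8 and 87.1), and Irf2, a repressor of ISRE genes, scored 142 and 59 (97.9 and 83.5). Irf1 scored 128 and 58, at percentiles 92.0 and 82.7. Irf7, which amplifies type I interferon, and Irf5 ranked lowest of the open transcription factors in both lists, with 124 and 31 (90.1 and 46.3) and 105 and 30 (80.0 and 44.2). Irf4 and Irf8, factors of lymphoid and myeloid cells, had no promoter peak and no promoter hotspot in either list. The nearest peaks lay 4441 and 11569 bp from a start site of Irf4 and 10793 and 12013 bp from one of Irf8, in biosample 1 and 2.

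Both feedback inhibitors were open, at scores of 138 and 64 for Nfkbia (96.4 and 87.1) and of 124 and 65 for Tnfaip3 (90.1 and 87.7). The best Nfkbia peak lay over the start site in both lists, and that of Tnfaip3 lay over a start site in biosample 1 and 6 bp before one in biosample 2.

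The antiviral effectors had the widest spread. Ifit2, which binds viral RNA with Ifit1 and Ifit3, scored 147 and 87 (99.5 and 97.2), and Ifi35 scored 144 and 77 (98.7 and 94.0). Mx2, of the dynamin-like GTPase family and typed here as a polymorphic pseudogene, scored 137 and 75 (96.0 and 93.0). Next came Usp18 with 143 and 60, the guanylate-binding protein gene Gbp3 with 135 and 60, and Bst2 with 138 and 56. These 6 genes and Gbp2 (128 and 60) ranked at percentile 80.9 or higher in both lists. Ifit1 scored 122 and 32 (89.2 and 48.3) and Mx1 118 and 33 (87.2 and 50.2).

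The oligoadenylate synthetase family, whose active enzymes make the second messenger that activates RNase L, included the effectors with the weakest promoter peaks of biosample 1. Oas1a scored 67 and Oas2 55 in biosample 1 (percentiles 52.3 and 38.0), and neither had a peak in biosample 2, where the nearest lay 30455 and 3128 bp away. Oas3 scored 112 and 25, Oasl1 96 and 27 and Oasl2 118 and 31, so the biosample 2 percentiles of these 3 genes ran from 33.2 to 46.3. Isg15 scored 112 in biosample 1 at percentile 84.0 (chr4:156200796-156200945), below the effector median of 87.2. Its nearest biosample 2 peak lay 2693 bp away. Rsad2, which encodes viperin, scored 88 in biosample 1 at percentile 69.2 (chr12:26456476-26456625), and its nearest biosample 2 peak lay 12127 bp away. Ifi44 was open in both lists at low rank, with 76 and 16 (60.3 and 11.6).

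Ifit3 had no promoter peak or hotspot although its neighbours Ifit1 and Ifit2 did. The 1000 bp on each side of its start site are poor in unique sequence: 37.1% of the 32-base words there occur once on the main chromosomes, the lowest share of the 46 genes, whose median was 98.9%. Oas1a came next, at 72.0%, while the windows of Irf4 (100%) and Irf8 (99.6%) were unique or nearly so. How reads with several possible places were handled is not given in the sources used here, and the part of repeated sequence in the missing Ifit3 peak was not tested.

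The antigen processing genes lie side by side on chromosome 17. Psmb9, an immunoproteasome subunit, and Tap1, a peptide transporter subunit, share the promoter between them and 1 peak, which scored 133 and 61 (94.2 and 85.0) and counted for both. Tap2 scored 112 and 39 (84.0 and 60.6) and Psmb8 99 and 31 (76.4 and 46.3).

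Over the genes with a peak, the best promoter peaks of the 46 genes ranked close to those of all genes. The median percentile was 92.0 in biosample 1 and 84.2 in biosample 2, beside 94.2 and 86.4 over all protein-coding genes with a peak. It was 96.4 and 87.7 for the transcription factors, 92.4 and 75.5 for sensors and receptors and 87.2 and 80.9 for the effectors.

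Among the roles, ISRE matches were most frequent at the effectors and kappa-B matches at the feedback inhibitors and transcription factors. From 250 bp before to 50 bp after a start site, an ISRE match was found at 13 of 22 effectors (59.1%, 38.7 to 76.7), 2 of 9 sensors and receptors (Ifih1 and Ddx58) and 1 of 13 transcription factors (Irf2), beside 6.61% of all genes. A kappa-B match was found at 9 of 13 transcription factors (69.2%, 42.4 to 87.3), both feedback inhibitors, 4 of 9 sensors and receptors and 5 of 22 effectors, beside 8.35% of all genes. The gamma-activated sequence (GAS), TTCNNNGAA, was found at 11 of 46 promoters, beside 14.0% of all genes, and the AP-1 site TGANTCA at 12 of 46, beside 12.0%. RefSeq's GRCm38.p6 promoter table listed 38 of the 46 genes.

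**Figure D3:**
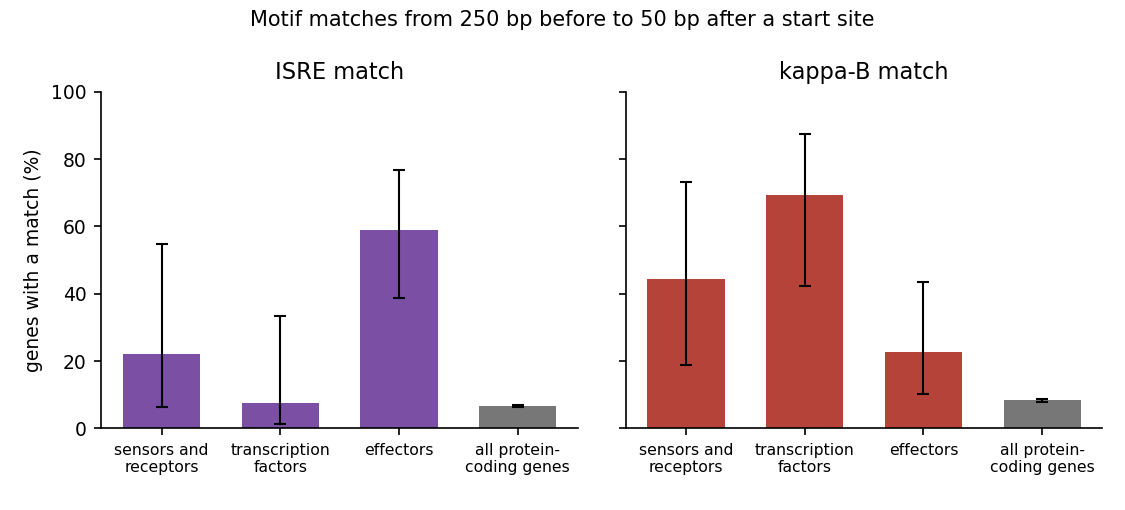
Share of genes (y axis, %) with an ISRE match (left) or a kappa-B match (right) from 250 bp before to 50 bp after any start site, by role and over all protein-coding genes; bars are shares with 95% Wilson intervals. Of the roles drawn, the ISRE is highest at the effectors, 59.1%, and kappa-B at the transcription factors, 69.2%; the 2 feedback inhibitors, both with a kappa-B and neither with an ISRE match, are not drawn.

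Most ISRE matches at the effector promoters lay within a peak of biosample 1. Of the 22 matches in the window at the 13 effectors, 19 met a biosample 1 peak (86.4%) and 11 a biosample 2 peak (50%). Over all protein-coding genes 278 of 1667 promoter matches (16.7%) met a biosample 1 peak and 212 (12.7%) a biosample 2 peak. The same was counted per peak, over all peaks within 1000 bp of a start site. In biosample 1, 14 of 41 effector promoter peaks held a match (34.1%, 21.6 to 49.5), beside 1.76% of all promoter peaks. In biosample 2 it was 8 of 28 (28.6%, 15.3 to 47.1), beside 1.79%. From 250 bp before to 50 bp after a start site, the effectors with a match were Ifit1, Ifit3, Isg15, Mx2, Oas1a, Oas2, Oas3, Bst2, Usp18, Gbp2, Gbp3, Rsad2 and Tap1. Of these 13, 12 had a peak in biosample 1, beside 939 of the 1443 genes with a match among all genes, and 8 were open in both lists (61.5%), beside 55.0%. The 9 effectors without a match in that window were all open in both, beside 10524 of the 20386 genes without a match among all genes. Of these 9, Oasl2, Tap2 and Psmb8 held a match in a promoter peak outside the window. Psmb9, also among them, shares its promoter peak with Tap1, whose match overlaps the end of that peak, so these genes are not separate promoters. The difference between effectors with and without a match was not tested. Among the 29 further effectors and antigen presentation genes of the same pathways, 13 of 15 with a match and 12 of 14 without one were open.

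**Figure D4:**
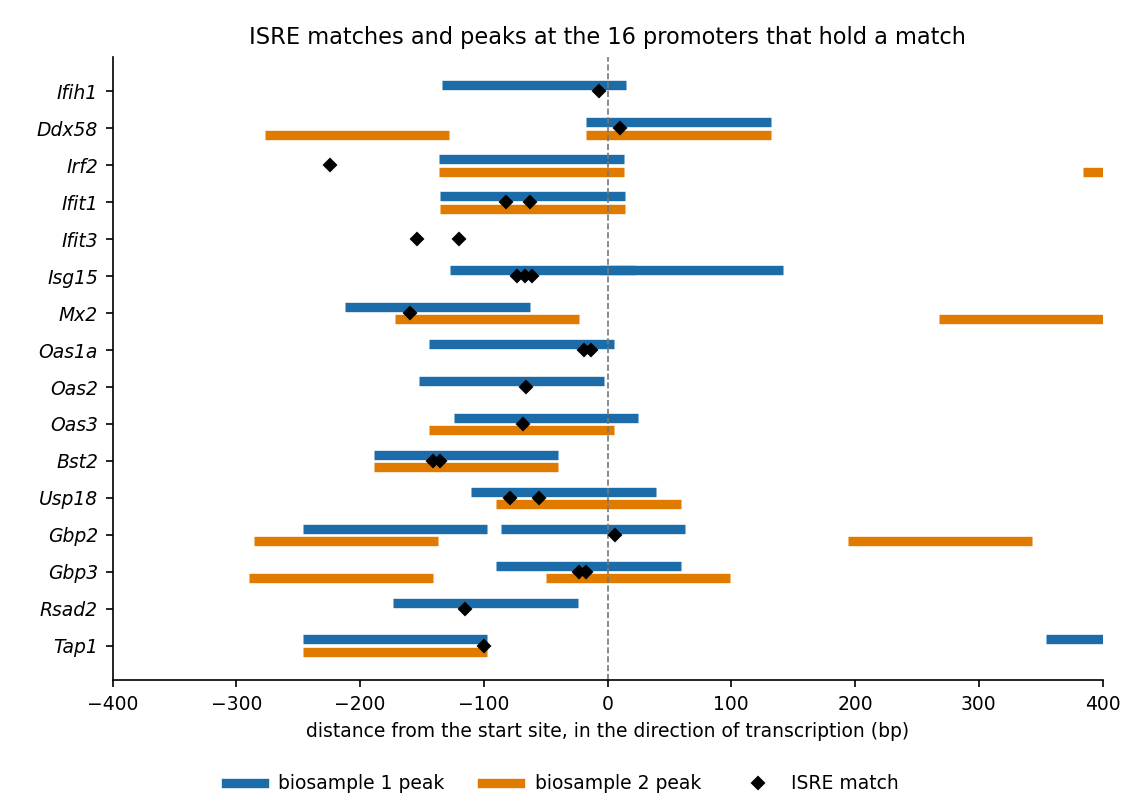
Peaks of biosample 1 (blue) and biosample 2 (orange) and ISRE matches (diamonds) by distance from the start site nearest to the match (x axis, bp, in the direction of transcription), for the 16 genes with a match; a second Oas2 match, at another start site, is not drawn. The matches drawn for 14 genes meet a biosample 1 peak, and those of Irf2 and Ifit3 meet none.

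Of the 30 kappa-B matches at 20 promoters, 14 met a biosample 1 peak and 15 a biosample 2 peak, while 26 and 23 met a hotspot. Over all genes 460 of 2155 matches (21.3%) met a biosample 1 peak and 368 (17.1%) a biosample 2 peak, while 1071 and 738 met a hotspot. Nfkb2 had 5 matches, 3 of them in a peak of both lists, and the 2 of Rel, 85 and 86 bp before its start site, met hotspots only. Nfkb1 had 1 match, in its biosample 1 peak over the first bases after the start site. Of these 20 genes 19 were open in both lists, with Nfkb1 as the exception, beside 59.1% of all genes with a kappa-B match. Open counts a peak at any start site, which need not be the one with the match. The only matches of Irf5, Irf9, Oasl1 and Oasl2 met no peak or hotspot of either list. Without a kappa-B match, 18 of 26 members were open, beside 10241 of 20007 among all genes. The difference was not tested. Irf7 held no ISRE in the promoter window but had a match in a peak 276 bp after a start site that was present in both lists, with scores of 97 and 25.

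Beyond the promoters, the 46 loci, each gene body with 50 kb on either side, held 799 distinct distal peaks in biosample 1 and 233 in biosample 2, where distal means over 1000 bp from every coding start site. Neighbouring genes share windows, so the loci merged into 35 windows of 4.80 Mb. The density was 166 distal peaks per Mb in biosample 1 and 48.5 in biosample 2, beside 122 and 36.3 in the windows of all protein-coding genes. Per gene the median was 18.5 and 5.5, beside 18 and 5 over all genes. Of the 799 peaks, 224 were met by a biosample 2 peak by at least 1 bp (28.0%, 25.03 to 31.2), which is near the 28.3% of all gene windows. The transcription factor loci had 193 and 45.0 distal peaks per Mb, the effector loci 148 and 51.2, the sensor and receptor loci 145 and 39.2, and the 2 feedback inhibitor loci 220 and 101, the highest of the roles in both lists. Of the biosample 1 distal peaks, 21 of 48 at the feedback inhibitors (43.75%, 30.7 to 57.7) were met in biosample 2, 33.8% at the effectors, 26.4% at the sensors and receptors and 21.7% at the transcription factors.

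**Figure D5:**
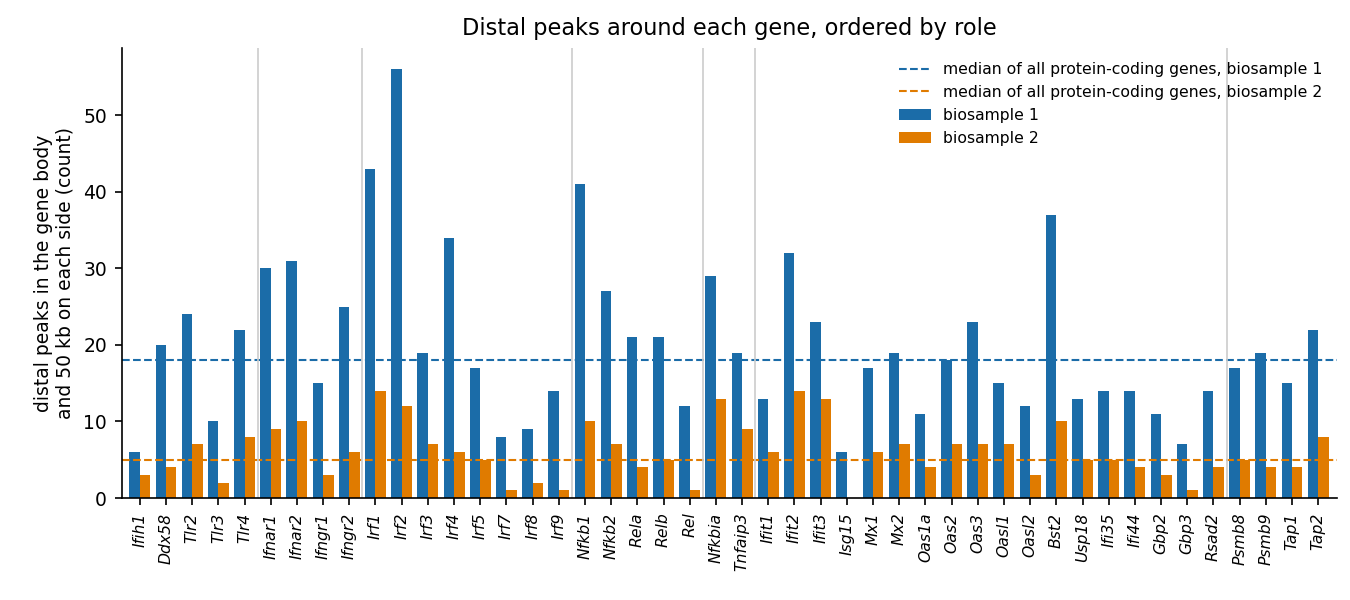
Distal peaks in the body and 50 kb on each side (y axis, count) of each of the 46 genes in biosample 1 (blue bars) and biosample 2 (orange bars), ordered by role; dashed lines are the medians of all protein-coding genes, 18 and 5. Irf2 has the most in biosample 1, 56, and Ifih1 and Isg15 the fewest, 6.

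The genes with the most distal peaks in biosample 1 were Irf2 with 56, Irf1 with 43, Nfkb1 with 41, Bst2 with 37 and Irf4 with 34. In biosample 2 these had 12, 14, 10, 10 and 6. The bodies of Irf2 and Nfkb1 are long, so that their windows span 208 and 207 kb. Irf1 had more peaks per base than 98.6% of genes in biosample 1 and than 98.4% in biosample 2. Isg15 and Ifih1 had 6 distal peaks each in biosample 1, and Isg15 had none in biosample 2.

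Some loci without a promoter peak had accessible distal sites. Around Irf4, 34 distal peaks of biosample 1 and 6 of biosample 2 were found, the strongest at chr13:30782516-30782665, 33209 bp downstream of a start site, with a score of 133, and it was met by a biosample 2 peak. Around Irf8 there were 9 and 2, and its strongest scored 106, 57737 bp downstream of a start site in an intron of another gene. Ifit3 had 23 and 13, in a window it shares with Ifit1 and Ifit2. In the Nfkb1 locus, whose promoter had no biosample 2 peak, an intronic site at chr3:135670976-135671125, 3177 bp from a start site, scored 145 and was shared.

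Distal peaks with a motif match are shown for 4 sites that were present in both lists: the kappa-B sites near Nfkbia and Ifnar2 with the highest mean percentile over the lists, the site with both motifs near Irf1, and the one with an ISRE match near Tnfaip3. Capitals mark the kappa-B match in Nfkbia and Ifnar2, the kappa-B and then the ISRE match in Irf1, and the ISRE match in Tnfaip3, each read in the direction of the gene.
Nfkbia (chr12:55443276-55443425, minus strand): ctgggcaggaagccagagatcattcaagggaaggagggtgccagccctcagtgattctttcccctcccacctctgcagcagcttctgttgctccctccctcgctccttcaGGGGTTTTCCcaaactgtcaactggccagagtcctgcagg
Ifnar2 (chr16:91362836-91362985, plus strand): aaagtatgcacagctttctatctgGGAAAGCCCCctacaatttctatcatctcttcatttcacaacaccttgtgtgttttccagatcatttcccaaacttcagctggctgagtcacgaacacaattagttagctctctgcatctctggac
Irf1 (chr11:53762976-53763125, plus strand): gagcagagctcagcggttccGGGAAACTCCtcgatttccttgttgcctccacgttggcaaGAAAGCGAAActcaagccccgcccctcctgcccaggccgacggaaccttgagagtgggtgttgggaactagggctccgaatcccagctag
Tnfaip3 (chr10:19034936-19035085, minus strand): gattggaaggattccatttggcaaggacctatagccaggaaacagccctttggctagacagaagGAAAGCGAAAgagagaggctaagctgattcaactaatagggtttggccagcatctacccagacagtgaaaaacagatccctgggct

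The Nfkbia site, 49222 bp downstream of the start site in intergenic sequence, scored 131 in biosample 1 and 71 in biosample 2, and a second shared Nfkbia site with kappa-B matches, at chr12:55446816-55446965, scored 136 and 48. The Ifnar2 site lay 9798 bp upstream and scored 136 and 58. The Irf1 site, 6889 bp upstream, scored 128 and 56, and the Tnfaip3 site, 19279 bp upstream, scored 97 and 28. The locus does not show which gene a distal site acts on.

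Motif shares in the distal peaks were near those of all distal peaks in biosample 1. In biosample 2 the kappa-B share was higher and the ISRE and GAS shares lower, on 12, 2 and 5 of 233 peaks. Peaks of the same locus are not independent, and these differences were not tested. In biosample 1 an ISRE match was present in 21 of 799 (2.63%, 1.73 to 3.98), beside 2.06% of all distal peaks, and kappa-B in 22 (2.75%, 1.83 to 4.13), beside 2.05%. In biosample 2 kappa-B was present in 12 of 233 (5.15%, 2.97 to 8.78), beside 2.25%, and ISRE in 2 (0.858%, 0.236 to 3.08), beside 2.01%. GAS was present in 43 of 799 (5.38%, 4.02 to 7.17), beside 5.48%, and in 5 of 233 (2.15%, 0.92 to 4.92), beside 5.46%. AP-1 was the most frequent motif of the 4, in 200 of 799 peaks (25.03%) and 74 of 233 (31.8%), beside 24.4% and 31.2% of all distal peaks.

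Of 61 other genes of the same pathways, 56 were open in both lists (91.8%), beside 80.4% of the 46 genes and 51.8% of all protein-coding genes. Of 32 signalling genes, 31 were open in both lists (96.9%, 84.3 to 99.4), with Bcl3, a nuclear IkB protein, open in biosample 1 alone. Strong promoter peaks lay at Ticam1, the TLR3 adaptor (147 and 107), Myd88, the adaptor of most Toll-like receptors (146 and 104), Socs1, the inhibitor of JAK kinases (148 and 99), and Tyk2, a kinase of the type I receptor (149 and 98). Of 29 further effectors and antigen presentation genes, 25 were open (86.2%, 69.4 to 94.5). Tapbp, the peptide loading factor tapasin, scored 150 and 97 and B2m, the light chain of class I molecules, 145 and 89. Psme1 and Ifnb1, the gene of interferon beta, had a peak in biosample 1 only, with scores of 110 and 102, and Ifitm1 and Ciita, the class II transactivator, had none. CpG-rich promoters of the 61 genes were open in 26 of 27 cases, beside 80.2% of all CpG-rich promoters. Their CpG-poor promoters were open in 30 of 34 cases, beside 27.1% of all CpG-poor ones. An ISRE match was held by 15 of the 29 effectors, beside 6.61% of all genes.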

How the data were processed

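The 4 DNase-seq libraries were grouped by the biological replicate number in the labels. Per the labels, the authors called 1 peak list and 1 hotspot list for each biosample, in mm10; aligner, caller and treatment of reads with several places are not given in the sources used here. Deposited peak scores are the authors' own values, with a median of 65 in biosample 1 and 33 in biosample 2, and were used only as percentiles within their list on chromosomes 1 to 19, X and Y. The deposited hotspot value is a −log10 q value, from 1.30 to a cap of 100, and was not used for ranking. The lists hold no read counts, so depth per library is unknown.

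Genes and their 54355 coding start sites came from GENCODE M21, and sequence from RefSeq GRCm38.p6, within whose chromosome lengths all intervals lay. Left out were 581 peaks of biosample 1 and 170 of biosample 2 on other sequences. The start site windows for motifs ran from 250 bp before to 50 bp after, and matches on both strands were counted. The scripts were tested on simulated data. No test was made, and the alternatives tried are given in the closing section. Python 3.11.15 and NumPy 2.4.6 were used. The older symbol Mb21d1 was matched through RefSeq synonyms. The members and lists were chosen with earlier results of these data known. Named in full were the 3 members of each role list with the highest mean percentile in both lists, every member with a peak in 1 list or none, and the 5 with most distal peaks in biosample 1; further members and comparison genes are given as values. The Oas family and the unique sequence words were examined after the data were seen.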

Additional observations from a re-analysis of the deposited data

How the results depend on the processing

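The count of 37 open promoters ranged from 28 (stronger 50% of each list by score, 46.2% of all genes) to 43 over the settings tried: windows of 500 bp (35) and 2000 bp (37), the most upstream start site (36), hotspots (37) and, chosen after seeing the data, the start sites of all transcripts (37) and a biosample 1 list shortened to the length of the other (36). With 1 list left out the counts ran from 37 to 43 for all genes, from 17 to 21 for effectors, from 10 to 11 for transcription factors and from 8 to 9 for sensors and receptors. The effectors fell from 17 to 11 with the stronger 50% of each list, by construction fewer peaks. Distal peaks in the loci, 799 and 233, became 488 and 152 with flanks of 25 kb, 1324 and 391 with flanks of 100 kb, and 427 and 135 with the stronger 50% of each list. The share of biosample 1 distal peaks met in biosample 2 stayed between 26.7% and 31.1%. An ISRE was found at 86.4% of effectors within 1000 bp on each side of a start site (31.8% of all genes), at 90.9% with 1 mismatch (49.8%) and at 54.5% with the most upstream start site (3.60%). No paired analysis was possible because each biosample has 1 pooled list and no test was made. With depth unknown, a promoter without a peak in biosample 2 was not detected in a shorter list and cannot be called closed.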

Other observations

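Ifng, the gene of interferon gamma, a cytokine of lymphocytes and natural killer cells, had a weak promoter peak in both lists, with scores of 67 and 19 (percentiles 52.3 and 18.6). Cxcl10, a chemokine gene induced by interferon, was open at 117 and 26 (86.7 and 35.4) and held both an ISRE and a kappa-B match in its promoter. The interferon-inducible GTPase genes ranked far apart: Irgm1 scored 135 and 67, Igtp 80 and 22 and Iigp1 64 and 11, at percentiles 89.0, 25.9 and 2.82 in biosample 2, and each held an ISRE match. Ifitm2 and Ifitm3, which block viral entry, scored 143 and 80 and 137 and 53, while Ifitm1 had no peak.

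Among the leukocyte markers, Lyz2, the lysozyme gene of myeloid cells, had a promoter peak near the top of both lists, with scores of 150 and 112 (percentiles 99.97 and 99.9). Cd68 (137 and 51), Csf1r (125 and 44) and Cd14 (106 and 29) were also open in both lists. Of the 12 markers 7 had no promoter peak, among them Tyrobp, Adgre1 and Ptprc.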
